A study of Mus musculus with 9 samples.

Results

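The genes described here encode the proteins of the cytosolic ribosome, measured in a mouse cell line without and with rapamycin and in a rapamycin-resistant line derived from it. Members were the genes whose symbol in the array's annotation has the form of a small-subunit protein (Rps with a number, or Rpsa), a large-subunit protein (Rpl with a number) or a stalk protein (Rplp0 to Rplp2), taken only from probe sets that carry a single symbol. There were 46 such genes of 18193 genes with a probe set of that kind, 22 of the small and 24 of the large subunit. Of these, 42 lay above the filter on dim probe sets and were tested, among 12715 genes tested in all. The 4 that did not were Rpl39l, Rpl3l and Rps4l, which are paralogs of common ribosomal proteins, and Rps16, whose only probe set with a single symbol was near 0 on every array. In the RefSeq mouse gene table, 83 symbols fit the rule, and 37 of them were not analysed here, Rplp1, Rpl5, Rps27a and Rpl10 among them; 28 of the 37 occur only on probe sets that carry further symbols.

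The cells are BC3H1, a mouse brain tumour line with myogenic properties, whose total RNA was read on 9 arrays of the Affymetrix Mouse 430 2.0 type, with 3 arrays per group. The resistant group (RR1) came from culturing BC3H1 for 6 months in 1 uM rapamycin, and it was kept in 1 uM rapamycin throughout. The sensitive rapamycin group was BC3H1 given 100 nM rapamycin for 24 h, and the sensitive DMSO group was BC3H1 given the solvent for 24 h. There was 1 resistant line, so line, months of culture, dose and drug cannot be told apart in its comparisons. Nothing in the labels states that arrays of a group stem from different cultures; the p-values reflect array-to-array spread, possibly only technical. Values are linear signals (intensities), analysed as log2(signal + 16); changes of dim genes are understated on this scale. Calls used an adjusted p (Benjamini-Hochberg, over all genes of a comparison) under 0.05 from a limma fit to all 9 arrays. Log2 changes are followed by ± the standard error (n = 3 arrays a group), and each probe set was read only against itself across arrays.

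Ribosomal proteins of the small subunit bind the mRNA and decode it, and those of the large subunit surround the site of peptide bond formation and the tunnel through which the new chain leaves. Their mRNAs, with those of several translation factors, are the classical TOP mRNAs: transcription starts at a C that is followed by an unbroken run of pyrimidines, the terminal oligopyrimidine tract. The kinase complex mTORC1, which rapamycin inhibits together with FKBP12, controls the translation of TOP mRNAs, and the protein Larp1 binds their start when the complex is inactive. That control acts mainly on the loading of existing mRNA onto ribosomes. The arrays measured total mRNA abundance, not translation.

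The annotated starts of the members were searched for a TOP-like tract, here a C followed by at least 4 letters that are each C or T, on the strand of the gene. RefSeq promoter entries (GRCm38.p6) were found for 37 of the 42 tested members, with 44 entries among them. The tract began exactly at the annotated start in 8 of the 44 entries (18.2%), against 2.51% of the 32851 promoter entries in the table, and within 5 bases of it in 20 entries (45.5%), against 18.3% of all entries. The 8 members with a tract exactly at the start are shown because they display the element for which this class of mRNA is named; each window runs 15 bases to either side of the start, 5′ to 3′, with the tract in capitals.
Rps6: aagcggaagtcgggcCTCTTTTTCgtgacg
Rps10: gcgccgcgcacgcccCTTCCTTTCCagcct
Rps18: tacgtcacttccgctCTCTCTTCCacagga
Rps27: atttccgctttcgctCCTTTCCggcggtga
Rpl14: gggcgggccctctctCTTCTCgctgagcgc
Rpl35: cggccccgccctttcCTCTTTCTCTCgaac
Rpl38: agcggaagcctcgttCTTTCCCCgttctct
Rplp2: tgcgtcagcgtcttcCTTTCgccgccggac
In the order shown, the windows lie at chr4:86857353-86857382 (minus strand), chr17:27635230-27635259 (minus strand), chr17:33955651-33955680 (minus strand), chr3:90213634-90213663 (minus strand), chr9:120571502-120571531 (plus strand), chr2:39005117-39005146 (minus strand), chr11:114668565-114668594 (plus strand) and chr7:141447636-141447665 (plus strand). The last 15 bases of each window are the first transcribed bases of the annotated mRNA. The capitals run for 5 bases in Rplp2 and for 11 in Rpl35. An entry without a match says only that these letters are not at that annotated position. The array files name no genome build, so these positions describe the reference and not the probes.

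One DMSO array stood apart. DMSO replicate 3 had a median signal of 66.0 over all probe sets, where the other 8 arrays lay between 33.3 and 44.2, and its highest signal was 18931, where the others reached 21588 to 27140. The median signal of the 42 members was 15370, 17615 and 17116 on the resistant arrays, 15805, 16340 and 14639 on the sensitive rapamycin arrays, and 14515, 14884 and 11788 on the DMSO arrays. The last of these is DMSO replicate 3, which was the lowest of all 9, and the counts of calls against DMSO are therefore given with and without it, with some exceptions. These are counts after centring on the members, of cell type markers, of probe sets grouped by signal and at an unadjusted p. The Actb control probe sets differed between their 3′ and 5′ ends by 0.32 to 0.35 on the log2 scale on the resistant arrays, by 0.15 to 0.22 on the sensitive rapamycin arrays and by 0.16 to 0.18 on the DMSO arrays. For the Gapdh controls the same difference was -0.33 to -0.25, -0.41 to -0.33 and -0.33 to -0.30, in that order of groups, so resistant and DMSO arrays overlapped. The part of either difference in the members' results was not tested.

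Markers of the cell type differed between the groups. Of 13 myogenic markers, 12 lay above the filter, and Myod1, a regulator of skeletal muscle, lay below it. Their summed signal was 13925 to 15991 on the resistant arrays, 46351 to 47856 on the sensitive rapamycin arrays and 35602 to 46634 on the DMSO arrays. In resistant against DMSO cells 9 of the 12 fell. Among them the smooth-muscle genes Acta2 averaged 6524 and 15000, Tagln 1276 and 7597, Actg2 21.6 and 3479 and Cnn1 14.2 and 775 in resistant and DMSO cells. Myog, which drives skeletal muscle differentiation, averaged 98.9 in resistant and 6.50 in DMSO cells and rose, as did Ckm, the muscle creatine kinase (77.4 in resistant and 26.5 in DMSO cells). Against sensitive rapamycin cells 9 fell and 2 rose in resistant cells, and with rapamycin against DMSO in sensitive cells 3 rose. The fibroblast genes Col1a1 (3844 in resistant and 10970 in DMSO cells) and Pdgfra (13.4 in resistant and 112 in DMSO cells) also fell in resistant cells. Of 14 markers of leukocytes, epithelium, endothelium, astrocytes, neurons and erythroid cells, 7 lay above the filter (Cd68, Adgre1, Epcam, Krt8, Gfap, Aqp4 and Rbfox3) and 7 below it (Ptprc, Cd3e, Cdh1, Pecam1, Cdh5, Snap25 and Hba-a1). Their summed signal was 284 to 378 on the resistant arrays, 293 to 457 on the sensitive rapamycin arrays and 299 to 1277 on the DMSO arrays, where the highest was DMSO replicate 3. Epcam fell with rapamycin (-1.21 ± 0.38, adjusted p = 0.0197), with means of 41.6 (SD 11.3) with rapamycin and 138 (SD 112) with DMSO. Its value without DMSO replicate 3 is not given here. Of the 7, limma called none in either resistant comparison (1 lower against DMSO and 0 against rapamycin at an unadjusted p under 0.05). The part of any of these markers in the members' results was not tested.

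**Figure D1:**
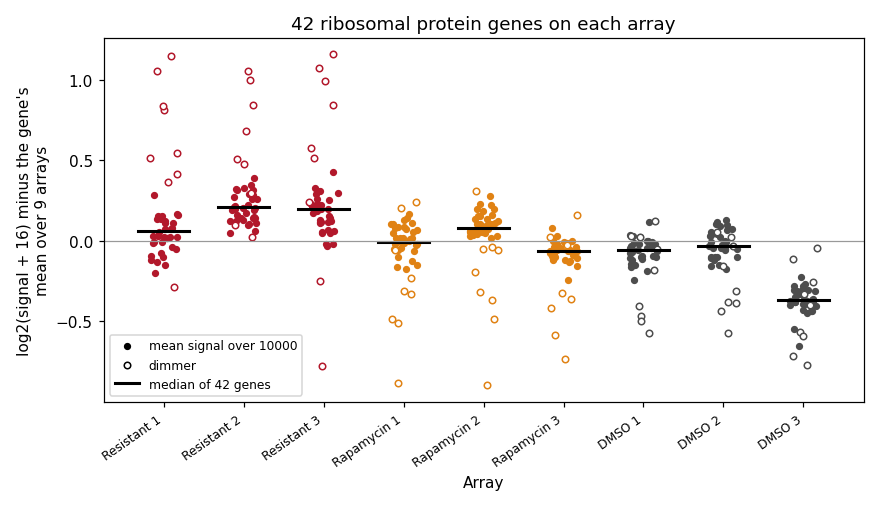
Each point is 1 of the 42 tested genes on 1 array, as log2(signal + 16) minus that gene's mean over the 9 arrays; filled points have a mean signal over 10000, open points are dimmer, and bars are medians of the 42 genes. DMSO replicate 3 lies below the other 8 arrays for nearly all bright genes, and most of the dimmer genes lie far above the rest on the 3 resistant arrays.

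In sensitive cells given rapamycin for 24 h, few ribosomal protein mRNAs moved. Rps6, Rpl10a and Rpl37 rose, Rps27l fell, and 38 of 42 members were not called. Rises were called in 20.4% of all tested genes and falls in 15.2%, so the members' shares of 7.14% and 2.38% were below the background in both directions. The median log2 change of the members was 0.16, against 0.03 over all genes tested. The interquartile range of the log2 changes was 0.09 over the members and 0.63 over all genes. Without DMSO replicate 3 the same numbers of members, 3 and 1, were called, against 21.2% and 16.1% of all genes, and the median shrank to 0.05, against 0.08 over all genes. Under quantile normalization, which gives every array the same distribution of signals, 4 members rose, 3 fell and the median was 0.0011.

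Rps6, the small-subunit protein phosphorylated by the S6 kinases downstream of mTORC1, had signals of 682, 684 and 798 with rapamycin, against 474, 541 and 428 with DMSO. The groups did not overlap, and the log2 change was 0.57 ± 0.10, adjusted p = 1.39e-04. Rpl37, a large-subunit protein, had signals of 3155, 3039 and 3129 with rapamycin and 2773, 2633 and 2604 with DMSO (0.22 ± 0.07, adjusted p = 0.025). Each rapamycin array was above each DMSO array for this gene, by a small margin. Rpl10a, the protein of the stalk beside the exit site, had 16122, 18966 and 16181 with rapamycin and 14255, 14528 and 12313 with DMSO (0.32 ± 0.11, adjusted p = 0.0275). Its lowest DMSO value was that of replicate 3, and without that array its change was 0.24 with an adjusted p of 0.0333. Rps27l, a paralog of Rps27 known in human cells as a gene induced by p53, was the member that fell, with 4255, 4865 and 4723 under rapamycin and 6174, 6171 and 5087 under DMSO (-0.33 ± 0.09, adjusted p = 0.0075). All 3 rapamycin arrays were below all 3 DMSO arrays. Without DMSO replicate 3 another Rps27l probe set was the brightest, and it fell by -0.42 with an adjusted p of 7.16e-05. In the fit to all arrays that set changed by -0.29. Each of these calls but that of Rps6 was lost when 1 array was left out: without rapamycin replicate 2 the adjusted p was 0.149 for Rpl10a and 0.0787 for Rps27l, and for Rpl37 it was 0.0662 without DMSO replicate 2, 0.0628 without rapamycin replicate 1 and 0.0694 without rapamycin replicate 3. The fit without rapamycin replicate 2 also read Rps27l from another probe set. The nearest member outside the threshold was Rpl37a, with a log2 change of 0.29 ± 0.11, adjusted p = 0.0537.

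Several well-known members, named whatever their result, did not pass the test. Rplp0, the base of the stalk that recruits elongation factors, had signals of 19517, 20286 and 17357 with rapamycin and 17679, 18185 and 13543 with DMSO (0.22 ± 0.12, adjusted p = 0.171). Its ranges overlapped. Rpl11, which together with Rpl5 can bind Mdm2 when not in a ribosome, changed by 0.13 ± 0.10, adjusted p = 0.336, and Rps19, a gene mutated in Diamond-Blackfan anaemia in humans, by 0.21 ± 0.11, adjusted p = 0.135. Rpsa, also known as the laminin receptor, had 0.12 ± 0.11, adjusted p = 0.435, and Rplp2, another stalk protein, 0.15 ± 0.10, adjusted p = 0.306. The groups did not overlap for 7 members with rapamycin above DMSO and 1 below, against 25.1% and 18.1% of all tested genes; without DMSO replicate 3 these were 7 and 2, against 32.5% and 23.2%.

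In resistant cells against sensitive DMSO cells, many ribosomal protein mRNAs rose. Of the 42 members, 23 rose, none fell and 19 were not called by limma, where 25.9% of all tested genes rose and 25.8% fell. At an unadjusted p under 0.05, 27 members were higher and 0 lower. The share of members that rose was 54.8%. The rise was called in 14 of 20 small-subunit members and in 9 of 22 large-subunit members (13 and 9 without DMSO replicate 3); the difference between the subunits was not tested. The median log2 change was 0.33 for the members, against -0.07 over all genes, and 40 of 42 had a positive change. Without DMSO replicate 3, 22 members rose and none fell, against 26.9% and 25.7% of all genes, and the median was 0.22, against 0.00 over all genes. Under quantile normalization 23 rose and 3 fell (Rps2, Rps14 and Rpl7a), with a median of 0.13, so the split of rises against falls depends on the scaling. In the same comparison 9 of 12 myogenic markers fell and 2 rose, as given above.

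**Figure D2:**
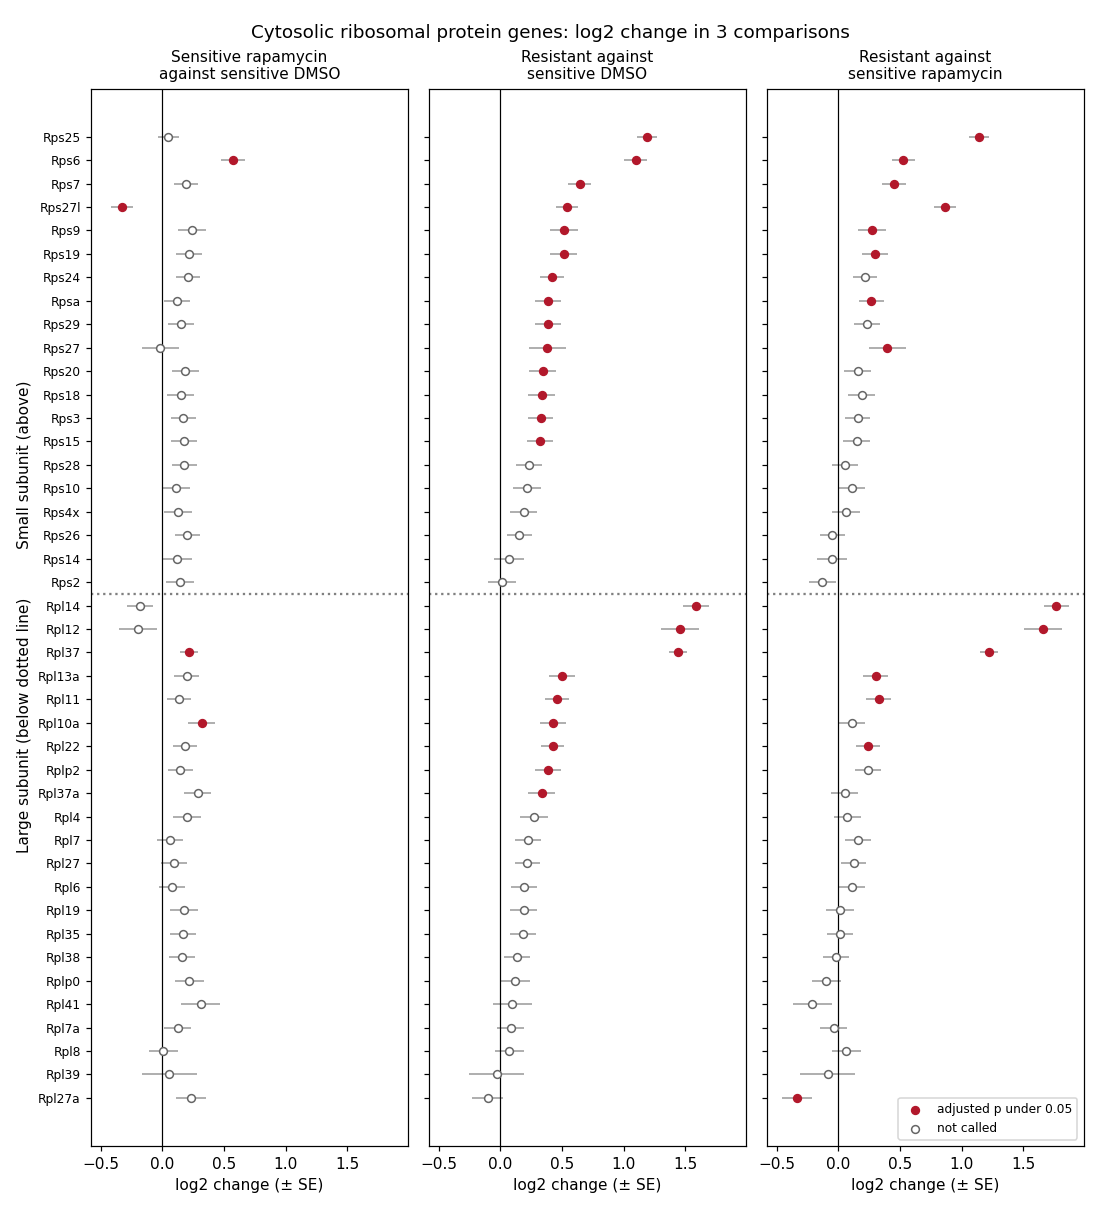
Log2 change of each of the 42 tested genes (points, bars are standard errors) in the 3 comparisons, small-subunit genes above the dotted line and large-subunit genes below it, ordered by their change in the resistant against the DMSO cells; filled points have an adjusted p under 0.05. In the left panel nearly all points lie in a narrow band just above 0, and in the panel of resistant against DMSO cells Rpl14, Rpl12, Rpl37, Rps25 and Rps6 stand well to the right.

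The largest rise was that of Rpl14, a large-subunit protein whose annotated start carries the tract shown above. It had signals of 1241, 1163 and 1248 in resistant cells, against 412, 403 and 366 in DMSO cells (1.59 ± 0.10, adjusted p = 8.72e-10). Rpl12, which sits at the base of the stalk, had 1096, 1053 and 1110 in resistant cells and 455, 416 and 298 in DMSO cells (1.46 ± 0.16, adjusted p = 4.08e-07). For both genes each resistant array was more than 2 times as bright as each DMSO array. Rpl37 had 7013, 7055 and 7822 in resistant cells and 2773, 2633 and 2604 in DMSO cells (1.44 ± 0.07, adjusted p = 2.62e-11). Rps25, a small-subunit protein needed for initiation at several viral internal entry sites, had 3587, 3278 and 3670 in resistant cells and 1468, 1564 and 1544 in DMSO cells (1.19 ± 0.08, adjusted p = 1.63e-09). Rps6 had 1045, 1018 and 1071 in resistant cells and 474, 541 and 428 in DMSO cells (1.10 ± 0.10, adjusted p = 3.25e-08). These 3 genes were also separated by a wide gap on every array. Rps7, of the small subunit, was the largest rise among the members with a mean signal over 10000, with 16760, 18088 and 18511 in resistant cells and 11625, 12435 and 10191 in DMSO cells (0.64 ± 0.10, adjusted p = 2.47e-05). Without DMSO replicate 3 the log2 changes of these 6 genes were 1.54 for Rpl14, 1.29 for Rpl12, 1.43 for Rpl37, 1.20 for Rps25, 1.02 for Rps6 and 0.56 for Rps7. Each of the 6 rested on 1 brightest probe set, and for Rpl14, Rpl12, Rpl37, Rps25 and Rps6 it was the only one above the filter with a single symbol. Mean signals over all arrays were 653 for Rpl14, 605 for Rpl12, 4358 for Rpl37, 2207 for Rps25 and 749 for Rps6. Most members exceeded 10000. For Rpl22, Rps24 and Rpl41 a dimmer probe set rose more than the brightest, as given below. Whether the changes of Rpl14, Rpl12, Rpl37, Rps25 and Rps6 hold for all mRNA of each gene was not tested.

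**Figure D3:**
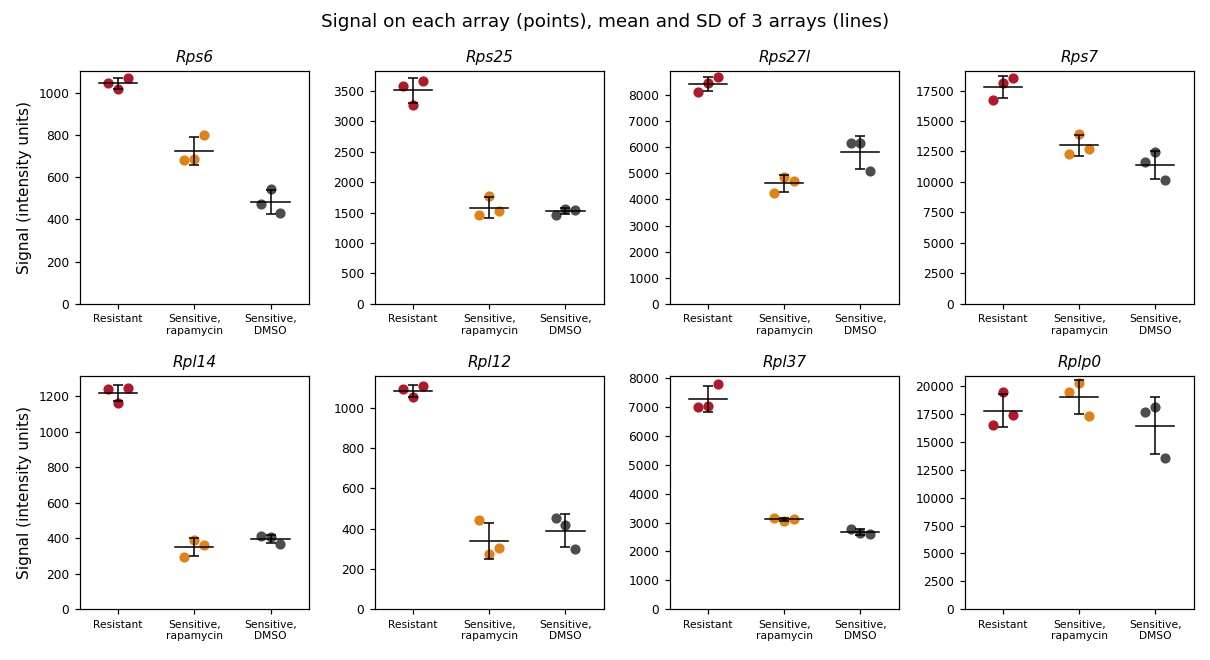
Signal of 8 ribosomal protein genes on each array (points), with the mean and SD of 3 arrays, for resistant cells, sensitive cells with rapamycin and sensitive cells with DMSO; axes start at 0. Rps25, Rpl14, Rpl12 and Rpl37 are high on the resistant arrays alone, Rps6 is highest in resistant and lowest in DMSO cells, Rps27l is lowest with rapamycin, and Rplp0 overlaps between groups.

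Smaller rises ran through both subunits. Among proteins with known roles outside or beside decoding, Rps19 had 13918, 15936 and 15526 in resistant cells and 11176, 11535 and 9185 in DMSO cells (0.51 ± 0.11, adjusted p = 5.64e-04). Rpl11 had 13498, 15037 and 14750 in resistant cells and 11182, 11162 and 9222 in DMSO cells (0.46 ± 0.10, adjusted p = 8.05e-04). Rpsa had 19802, 22484 and 20755 in resistant cells and 16842, 17315 and 14215 in DMSO cells (0.39 ± 0.11, adjusted p = 0.00512). In these 3 genes every resistant array exceeded every DMSO array. The stalk proteins differed in call: Rplp2 had 20203, 22066 and 21600 in resistant cells and 16928, 17822 and 14282 in DMSO cells (0.39 ± 0.10, adjusted p = 0.00429), whereas Rplp0 had 16555, 19444 and 17385 in resistant cells and 17679, 18185 and 13543 in DMSO cells (0.12 ± 0.12, adjusted p = 0.424). The difference between Rplp2 and Rplp0 was not tested. Rps27l, which fell with rapamycin in the sensitive cells, had 8121, 8473 and 8681 in resistant cells and 6174, 6171 and 5087 in DMSO cells (0.54 ± 0.09, adjusted p = 6.01e-05). The smallest p outside the threshold was that of Rpl4 (0.27 ± 0.11, adjusted p = 0.0507), and the largest inside it that of Rps27 (0.38 ± 0.15, adjusted p = 0.0413), whose groups overlapped. The Rps27 call was lost without DMSO replicate 2 (adjusted p = 0.0893), DMSO replicate 3 (0.144), resistant replicate 1 (0.217) or resistant replicate 3 (0.0822). Resistant arrays lay above all DMSO arrays for 26 members and below them for none, against 28.9% and 29.6% of all tested genes; without DMSO replicate 3 these were 26 and 1, against 34.4% and 33.9%.

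In resistant cells against sensitive cells given rapamycin, 14 members rose, 1 fell and 27 were not called. Over all genes 26.4% rose and 30.1% fell. In the fit to all 9 arrays the members' share of rises, 33.3%, was close to the background. Their share of falls, 2.38%, was below it. The median log2 change was 0.15 for the members and -0.08 for all genes. DMSO arrays enter this comparison only through the shared estimate of the spread, the filter and the choice of the brightest probe set. Without DMSO replicate 3 the count was 22 higher and 2 lower (52.4% and 4.76%), against 28.3% and 32.7% of all genes. The median was 0.15 as before. Under quantile normalization 23 members rose and 3 fell, where 3603 of all genes rose and 3592 fell. The members' share of rises thus depended on the fit. The count of rises was 8 without rapamycin replicate 1 or resistant replicate 3, and 9 without rapamycin replicate 3 or resistant replicate 2. Centring each array on its 75th percentile raised the median of all genes by 0.13 here; relative to all genes the members' median was 0.23 with and without that centring. The comparison shares its resistant arrays with the one above, so the results of these comparisons are not independent. The dose of rapamycin also differed between the groups, at 1 uM in the resistant and 100 nM in the sensitive cells, as did the exposure.

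Rpl14 again had the largest rise, with 1241, 1163 and 1248 in resistant cells and 292, 389 and 362 in sensitive cells with rapamycin (1.77 ± 0.10, adjusted p = 9.43e-11). Rpl12 had 1096, 1053 and 1110 in resistant cells and 441, 272 and 306 in sensitive rapamycin cells (1.66 ± 0.16, adjusted p = 4.59e-08). Rpl37 changed by 1.23 ± 0.07, adjusted p = 9.66e-11, and Rps25 by 1.14 ± 0.08, adjusted p = 1.32e-09. Rps27l had 8121, 8473 and 8681 in resistant cells and 4255, 4865 and 4723 in sensitive rapamycin cells (0.87 ± 0.09, adjusted p = 1.48e-07). Resistant arrays were well above sensitive rapamycin arrays for all 5 genes. Rps6 had 1045, 1018 and 1071 in resistant cells and 682, 684 and 798 in sensitive rapamycin cells (0.53 ± 0.10, adjusted p = 1.15e-04), so its sensitive rapamycin values lay between those of the other groups. Rpl27a, a large-subunit protein, was the 1 member that fell, with 276, 366 and 284 in resistant cells and 406, 426 and 347 in sensitive rapamycin cells (-0.34 ± 0.12, adjusted p = 0.0271). Its groups overlapped, because 1 resistant array lay above the lowest rapamycin array; it is named because it was the only fall. The call was lost without rapamycin replicate 1 (adjusted p = 0.0757), rapamycin replicate 2 (0.108), resistant replicate 1 (0.12) or resistant replicate 3 (0.106), and also with arrays centred on their 75th percentile (0.189) and under quantile normalization (0.106). Rps9 lay just inside the threshold (0.27 ± 0.11, adjusted p = 0.0485) and Rplp2 just outside (0.24 ± 0.10, adjusted p = 0.0564); without any 1 of 5 of the resistant and rapamycin arrays the adjusted p of Rps9 lay between 0.0577 and 0.163. Resistant arrays lay above all sensitive rapamycin arrays for 18 members and below them for 1, against 30.1% and 35.3% of all tested genes.

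To describe how members differed from one another, each array was also centred on the median of the 42 members, which takes out any change they share. In sensitive cells with rapamycin against DMSO, Rps6 was higher relative to the other members (0.38 ± 0.13, adjusted p = 0.035), while Rps27l (-0.52 ± 0.07, adjusted p = 5.16e-06) and Rpl8, a large-subunit protein near the peptide bond-forming site (-0.18 ± 0.06, adjusted p = 0.0267), were lower. This was 1 higher and 2 lower, where 7.50% and 19.3% of all genes were called after the same centring. In resistant cells against DMSO cells, 13 members were relatively higher and 8 lower, against 12.0% and 35.5% of all genes. The lower ones included Rpl27a (-0.39), Rps2 (-0.28), Rps14 (-0.22) and Rpl8 (-0.22), and the highest was Rpl14 (1.30). In resistant against sensitive rapamycin cells, 15 were relatively higher and 8 lower, against 21.0% and 30.9% of all genes; Rpl27a (-0.43), Rpl41, the smallest ribosomal protein (-0.31), Rps2 (-0.23) and Rplp0 (-0.20) were among the lower. A relative fall after this centring is not a fall in mRNA: Rps2 had signals of 15471, 17571 and 16566 in resistant cells and 17284, 18224 and 13962 in DMSO cells, which overlapped (0.01 ± 0.11, adjusted p = 0.942). Under quantile normalization without this centring Rps2 was called lower, at -0.19, adjusted p = 1.77e-04.

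Size of change went with brightness. Of the 42 members, 33 had a mean signal over 10000 and 9 were dimmer. In resistant against DMSO cells the bright members had a median log2 change of 0.27, with a range of 0.01 to 0.64, and 16 of 33 rose; the dimmer members had a median of 1.10, with a range of -0.10 to 1.59, and 7 of 9 rose, where 25.9% of all tested genes rose. Without DMSO replicate 3, 16 of the 33 and 6 of the 9 rose, with medians of 0.16 and 1.02. In resistant against sensitive rapamycin cells the medians were 0.11 for bright and 0.87 for dimmer members. In sensitive cells with rapamycin against DMSO they were 0.17 for bright and 0.05 for dimmer members. The highest signal on any array was 27140, and the bright members lay in the upper part of this range. Probe sets of other genes with like signals were set beside them. With mean signals between 10000 and 30000 there were 57 member probe sets and 69 others. With rapamycin in sensitive cells their medians were 0.18 for members and 0.15 for others, so bright probe sets of either kind had a positive median there; 1 of the 57 was called higher, against 13% of the others. The medians in resistant against DMSO cells were 0.28 for members and 0.09 for others, and 31 of the 57 were called higher, against 29.0%. They were, in resistant against sensitive rapamycin cells, 0.11 for members and -0.04 for others, with 12 of the 57 called higher, against 26.1%. Between 1000 and 10000, with 14 member probe sets and 3335 others, the medians were 0.09 and 0.01 with rapamycin in sensitive cells, 0.64 and 0.09 in resistant against DMSO cells, and 0.72 and 0.11 in resistant against sensitive rapamycin cells, for members and others. Of these 14, 12 were called higher in resistant against DMSO cells, against 42.6% of the others. The part that the signal range plays in these differences was not tested.

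**Figure D4:**
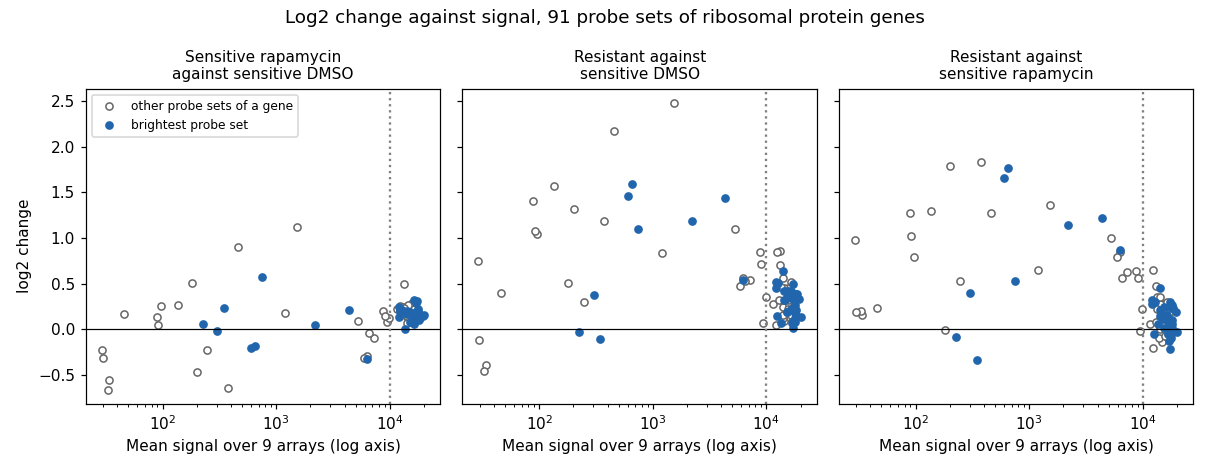
Log2 change of 91 probe sets of ribosomal protein genes against their mean signal over 9 arrays (log axis) in the 3 comparisons; filled points are each gene's brightest probe set, open points its further ones, and the dotted line marks a signal of 10000. In both resistant comparisons the changes of 1 or more all lie left of the dotted line, and right of it the points form a compact cloud.

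Probe sets of the same gene also differed in change, and the following genes were chosen after their values were seen. Rpl22, a large-subunit protein, rose by 0.42 on its brightest probe set in resistant against DMSO cells, by 0.71 on another bright one and by 2.48 on a dimmer one whose mean signal was 2945 in resistant and 521 in DMSO cells. The dimmer Rpl22 probe set also rose with rapamycin in sensitive cells (1.12 ± 0.12, adjusted p = 1.35e-06), which the brightest did not (0.18 ± 0.10, adjusted p = 0.172). Rpl13a had 4 probe sets, and its log2 changes in resistant against DMSO cells, ordered by brightness, were 0.50, 0.28, 0.85 and 1.10. For Rps24, a small-subunit protein with several splice forms, the brightest probe set changed by 0.42 and a probe set with a mean signal of 458 by 2.18. The 2 bright Rpl41 probe sets changed by 0.10 and 0.07, and its 2 dim ones by 1.19 and 1.32. Rps27l had 3 probe sets of similar brightness that moved together, by 0.87, 0.85 and 0.79 in resistant against sensitive rapamycin cells. A gene's level of change was thus read differently by different probe sets, and the cause was not tested. Ribosomal protein genes have many processed pseudogenes, and the array cannot tell the signals of near-identical copies apart.

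Probe sets that carry a member symbol beside other symbols were examined separately and are not named by gene. Of 110, 106 passed the filter. In sensitive cells with rapamycin against DMSO 7 rose and 1 fell, with a median of 0.17, against 17.2% and 13.1% of all probe sets with a symbol. Of the same sets, 63 rose and 2 fell in resistant against DMSO cells, with a median of 0.35, against 23.1% and 23.8%. There were 43 rises and 3 falls in resistant against sensitive rapamycin cells, with a median of 0.17, against 23.7% and 27.9%. Leaving out DMSO replicate 3 gave 4 and 2 (against 18.3% and 13.9%), 59 and 1 (against 24.3% and 23.5%), and 54 and 8 (against 25.9% and 30.5%), in the same order. These probe sets include those of 28 genes that the 42 members do not cover.

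The 8 members with a TOP-like tract at the annotated start were set beside the 18 members with entries but no tract within 5 bases of it. In sensitive cells with rapamycin against DMSO, 1 of the 8 rose (Rps6), their median log2 change being 0.15, and 2 of the 18 did (Rpl10a and Rpl37), with a median of 0.18, where 20.4% of all genes rose. The 8 ranged from -0.18 for Rpl14 to 0.57 for Rps6 in that comparison. Against DMSO, 5 of the 8 rose in resistant cells (Rps6, Rps18, Rps27, Rpl14 and Rplp2), with a median of 0.36, and 11 of the 18, with a median of 0.33, where 25.9% of all genes rose. The call of Rps18 was lost without resistant replicate 2 (adjusted p = 0.0855) or resistant replicate 3 (0.0595). Against sensitive rapamycin cells, 3 of the 8 rose in resistant cells, with a median of 0.21, and 7 of the 18, with a median of 0.14, where 26.4% of all genes rose. When DMSO replicate 3 was left out, the rises numbered 1 of 8 and 2 of 18, 4 of 8 and 11 of 18, and 5 of 8 and 9 of 18 in these comparisons. Over all genes 21.2%, 26.9% and 28.3% rose in that fit, in the same order. Differences between these sets were not tested.

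Genes that act with the ribosomal proteins were examined as lists, which were chosen with earlier results of these data known. Among paralogs and ribosomal proteins that the symbol rule misses or that stand apart, 5 of 14 were tested, of which Rps27l and Rpl41 are members described above. Rpl7l1, a paralog of Rpl7, had 869, 923 and 1050 in sensitive cells with rapamycin and 1558, 1476 and 1254 with DMSO (-0.58 ± 0.09, adjusted p = 5.69e-05). It had 1999, 2036 and 1934 in resistant cells, above both other groups, and rose against DMSO (0.48 ± 0.09, adjusted p = 2.08e-04) and against sensitive rapamycin cells (1.06 ± 0.09, adjusted p = 1.12e-08). With the dimmest Rpl7l1 probe set the call was lost with rapamycin (-0.40, adjusted p = 0.0912) and in resistant against DMSO cells (0.18, adjusted p = 0.446). Rpl22l1, the paralog whose mRNA is repressed by Rpl22 in mouse cells, had 3951, 3620 and 4428 in resistant cells, 5310, 5852 and 5695 in sensitive rapamycin cells and 5372, 5215 and 3944 in DMSO cells. It fell in resistant cells against sensitive rapamycin cells (-0.49 ± 0.11, adjusted p = 6.63e-04) and, with groups that overlapped through DMSO replicate 3, against DMSO cells (-0.27 ± 0.11, adjusted p = 0.0454); the call against DMSO cells was lost in 7 of the 9 fits without 1 array, with an adjusted p of up to 0.2, and with arrays centred on their 75th percentile (0.278) or a replicate block (0.0585). Rpl22 rose against DMSO cells (0.42 ± 0.10, adjusted p = 0.00135) and against sensitive rapamycin cells (0.24 ± 0.10, adjusted p = 0.0431); its call against sensitive rapamycin cells was lost without DMSO replicate 1, any rapamycin array, or resistant replicate 2 or 3, with an adjusted p of 0.0514 to 0.162, and with a replicate block (0.0501). Fau, made as a ubiquitin-like protein fused to a small-subunit protein, rose in resistant against DMSO cells (0.41 ± 0.10, adjusted p = 0.003) and gave 0.22 ± 0.10, adjusted p = 0.0888 against sensitive rapamycin cells.

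Of the other TOP mRNAs, 19 of 20 listed were tested. With rapamycin in sensitive cells 5 rose (26.3%) and 3 fell (15.8%), against 20.4% and 15.2% of all genes, with a median log2 change of 0.16; these shares are close to the background. Eif4a2, a helicase of initiation, rose (0.75 ± 0.09, adjusted p = 4.27e-06), as did Eif4b, its cofactor (0.65 ± 0.07, adjusted p = 2.51e-06), Eef2, the translocation factor (0.57 ± 0.09, adjusted p = 8.19e-05), and Eif3f, an initiation factor subunit (0.45 ± 0.09, adjusted p = 9.51e-04). Against DMSO, 12 rose (63.2%) and 2 fell (10.5%) in resistant cells, against 25.9% and 25.8% of all genes, with a median of 0.43. The largest were Ipo7, an import receptor for ribosomal proteins (1.14 ± 0.07, adjusted p = 9.37e-10), and Eif4b (0.81 ± 0.07, adjusted p = 7.16e-08), and Vim, the intermediate filament vimentin, fell (-0.73 ± 0.11, adjusted p = 1.75e-05). In resistant against sensitive rapamycin cells 9 rose (47.4%) and 2 fell (10.5%), against 26.4% and 30.1% of all genes, with a median of 0.21; Ipo7 was the largest rise (1.21) and Vim the largest fall (-0.93). Eef1a1 and Tpt1, classical TOP mRNAs with bright probe sets, were not called in any comparison in the fit to all 9 arrays; in resistant against DMSO cells Eef1a1 gave 0.00 ± 0.11, adjusted p = 0.994 and Tpt1 -0.02 ± 0.11, adjusted p = 0.883. Both were called lower in that comparison under quantile normalization, at -0.19 and -0.24. Both were called lower in resistant against sensitive rapamycin cells without DMSO replicate 3 (Eef1a1 -0.16, adjusted p = 0.0457; Tpt1 -0.24, adjusted p = 0.00852) and under quantile normalization (-0.19 and -0.27), and Tpt1 also with the 2 groups alone (adjusted p = 0.0135). They are named because of their brightness, after their values were seen.

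Regulators of TOP mRNAs and the translation arm of mTORC1 mostly fell or were not called with rapamycin in sensitive cells. Of 14 tested, 1 rose and 7 fell in sensitive cells with rapamycin (7.14% and 50%, against 20.4% and 15.2% of all genes), with a median of -0.24. Larp1 had 1111, 1131 and 1089 with rapamycin and 1474, 1391 and 1336 with DMSO (-0.33 ± 0.07, adjusted p = 0.00163). It had 2148, 1985 and 1914 in resistant cells (0.52 ± 0.07, adjusted p = 9.96e-06 against DMSO). Eif4ebp1, the mTORC1 substrate that holds back the cap-binding factor, fell with rapamycin (-0.71 ± 0.09, adjusted p = 7.72e-06), as did Eif4e, the cap-binding factor itself (-0.55 ± 0.08, adjusted p = 6.11e-05), and Hnrnpd, an RNA-binding protein (-0.78 ± 0.07, adjusted p = 1.63e-07). The call of Eif4e was lost with its most variable probe set (-0.12, adjusted p = 0.885). That of Hnrnpd was lost with its brightest probe set without shared-probe suffix (-0.49, adjusted p = 0.108). In resistant cells 9 of 14 rose and none fell against DMSO (64.3%, against 25.9% of all genes), with a median of 0.34, and 11 rose and none fell against sensitive rapamycin cells (78.6%, against 26.4%), with a median of 0.70. At an unadjusted p under 0.05 these limma counts were again 9 and 0, and 11 and 0. The largest of these were Hnrnpd (0.88 and 1.66) and Larp4, which protects the poly(A) tails of mRNAs (1.19 and 1.26). Against DMSO, the brightest Hnrnpd probe set without shared-probe suffix gave -0.18, adjusted p = 0.534.

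Chaperones and assembly partners of ribosomal proteins fell with rapamycin in sensitive cells and rose in resistant cells in most cases. Of 9 tested, none rose and 7 fell with rapamycin in sensitive cells (77.8%, against 15.2% of all genes), with a median of -0.59. Grwd1, a chaperone of Rpl3, had 408, 374 and 304 with rapamycin and 742, 695 and 1057 with DMSO (-1.15 ± 0.14, adjusted p = 4.36e-06). Ebna1bp2, a large-subunit assembly factor, had 1002, 1051 and 1039 with rapamycin and 2189, 2038 and 2099 with DMSO (-1.02 ± 0.07, adjusted p = 3.19e-09). For both genes the groups were fully separated. The Ebna1bp2 call was lost with its probe sets averaged (-0.48, adjusted p = 0.135). With its dimmest probe set the change was 0.065, adjusted p = 0.946. Ltv1, of small-subunit assembly (-0.86), and Rrs1, which helps to place the Rpl5 and Rpl11 particle (-0.69), fell as well. In resistant cells 6 of the 9 rose and none fell against DMSO (66.7%, against 25.9% of all genes), with a median of 0.71, and 8 rose and none fell against sensitive rapamycin cells (88.9%, against 26.4%), with a median of 1.16. The limma counts at an unadjusted p under 0.05 were the same in all 3 comparisons of this list. Rrs1 had 3344, 3221 and 3135 in resistant cells, above every sensitive array (1.52 ± 0.10, adjusted p = 6.95e-10 against DMSO and 2.21 ± 0.10, adjusted p = 2.15e-12 against rapamycin). In the same sensitive cells the ribosomal proteins had 3 rises and 1 fall of 42; the difference between the lists was not tested.

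**Figure D5:**
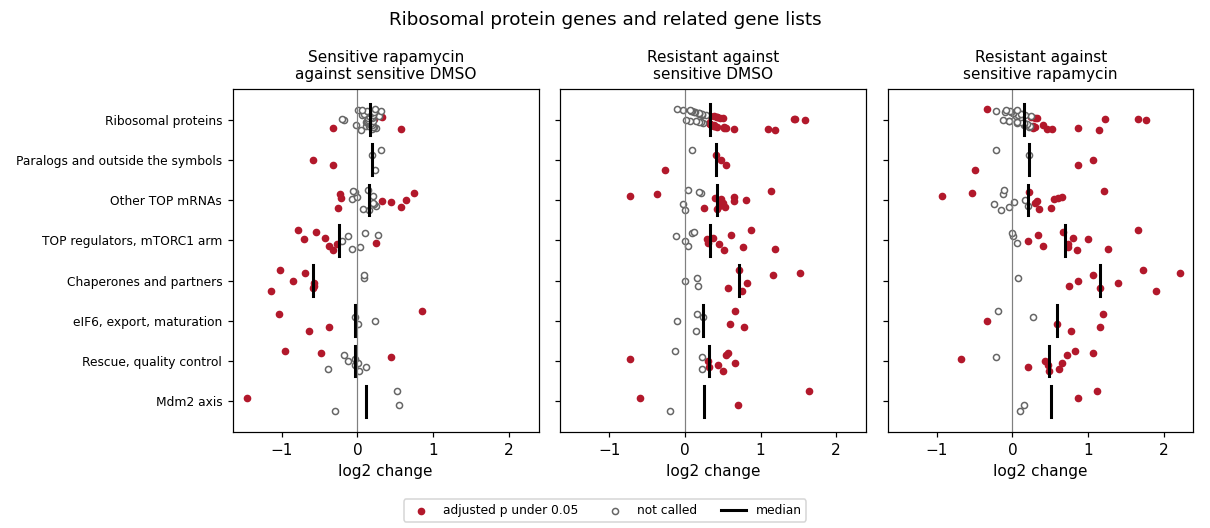
Log2 change of the tested genes of each list (points) in the 3 comparisons, with the median as a bar; filled points have an adjusted p under 0.05, and Rps27l and Rpl41 appear in both upper rows. With rapamycin in sensitive cells the ribosomal proteins cluster just above 0 while chaperones and partners lie mostly below it, and in resistant cells against sensitive rapamycin cells the chaperones have the highest median, 1.16.

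Factors of large-subunit maturation and export were mixed. Over all genes the shares of rises and falls were 20.4% and 15.2% with rapamycin in sensitive cells, 25.9% and 25.8% in resistant against DMSO cells, and 26.4% and 30.1% in resistant against sensitive rapamycin cells, and lists this small are read only as counts beside them. Of 7 tested, 1 rose and 3 fell with rapamycin in sensitive cells (median -0.03), 3 rose and none fell in resistant against DMSO cells (median 0.24; 4 and 0 at an unadjusted p under 0.05 by limma), and 4 rose and 1 fell against sensitive rapamycin cells (median 0.58). Xpo1, the exportin that carries pre-ribosomes out of the nucleus, fell with rapamycin (-1.04 ± 0.07, adjusted p = 3.68e-09), as did Eif6, which keeps the subunits apart (-0.64 ± 0.08, adjusted p = 3.21e-06), while Zfp622, a late maturation factor, rose (0.85 ± 0.09, adjusted p = 7.23e-07). Nmd3, the adaptor between Xpo1 and the large subunit, rose in resistant against DMSO cells (0.78 ± 0.09, adjusted p = 9.91e-07). Of 11 tested genes of ribosome hibernation, rescue and quality control, 1 rose and 2 fell with rapamycin (median -0.04), 7 rose and 1 fell in resistant against DMSO cells (median 0.32), and 9 rose and 1 fell against sensitive rapamycin cells (median 0.48). Nemf, which marks stalled chains on the large subunit, rose in resistant against DMSO cells (0.66 ± 0.11, adjusted p = 4.44e-05), and Usp16, a deubiquitinase of the small subunit, fell (-0.72 ± 0.10, adjusted p = 8.69e-06). Of the 4 tested genes of the axis through which free ribosomal proteins act on Mdm2, 1 fell with rapamycin and none rose (1 at an unadjusted p under 0.05 by limma), 2 rose and 1 fell in resistant against DMSO cells, and 2 rose and none fell against sensitive rapamycin cells (2 and 0 unadjusted). Cdkn2a rose in resistant cells against DMSO (1.64 ± 0.26, adjusted p = 4.01e-05) and against sensitive rapamycin cells (1.12 ± 0.26, adjusted p = 0.00126). Mdm4 rose against DMSO (0.70 ± 0.24, adjusted p = 0.0201). That Mdm4 call was lost with its probe sets averaged (0.43, adjusted p = 0.166). It was also lost without resistant replicate 2 (adjusted p = 0.0628) or 3 (0.068). Cdkn1a, an inhibitor of cell division, fell with rapamycin (-1.46 ± 0.16, adjusted p = 1.24e-06) and in resistant against DMSO cells (-0.60 ± 0.16, adjusted p = 0.00427) and rose in resistant against sensitive rapamycin cells (0.87 ± 0.16, adjusted p = 1.33e-04). Its call in resistant against DMSO cells was lost with its probe sets averaged (-0.45, adjusted p = 0.126). With its most variable probe set it was lost as well (-0.30, adjusted p = 0.642).

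Without DMSO replicate 3 some counts of the smaller lists moved. In that fit 21.2% of all genes rose and 16.1% fell with rapamycin in sensitive cells. The shares were 26.9% and 25.7% in resistant against DMSO cells. Against sensitive rapamycin cells they were 28.3% and 32.7%. With rapamycin in sensitive cells, 5 of the other TOP mRNAs rose and 3 fell, 1 of the regulators rose and 7 fell, and 7 of the chaperones fell and none rose, as with all arrays; 3 genes of rescue and quality control fell in place of 2, and 1 of the Mdm2 axis rose in place of none. Against DMSO, resistant cells had 12 and 2 of the other TOP mRNAs, 9 and 0 of the regulators and 6 and 0 of the chaperones called higher and lower, as before. There 5 genes of rescue and quality control rose in place of 7, and 4 maturation and export factors in place of 3. In resistant against sensitive rapamycin cells 11 of the other TOP mRNAs rose and 4 fell, in place of 9 and 2, 3 of the paralogs rose and 2 fell, in place of 2 and 1, and 2 maturation and export factors fell in place of 1. The counts of regulators (11 and 0) and chaperones (8 and 0) were as before in that comparison.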

How the data were processed

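Total RNA of 9 samples, 3 in each of 3 groups given by the sample titles, was hybridised to Affymetrix Mouse 430 2.0 arrays. The authors deposited an intensity (a linear signal) for every probe set of an array, computed in GCOS 1.4 according to the submitters' processing notes; how the software was set is not given in the sources used here. The mean of each array, with 2% of values trimmed at either end, was 250 in the deposited values, so no further scaling was applied. Detection calls, scan dates and batches were not used here, and the number of arrays limits the precision.

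Probe sets were named from the platform annotation, using those with 1 symbol (34945 of 45101, with 64 controls left out). Values were taken as log2(signal + 16), probe sets were kept where their mean exceeded the 40th percentile, which was a signal of 22.2, and each gene was read from its brightest one. All 46 members were found in RefSeq's mouse gene table. For 12715 genes, limma 3.58.1 (R 4.3.3) was used to fit 1 linear model to the 9 arrays, with a mean-variance trend in eBayes, and p-values were adjusted by Benjamini-Hochberg within each comparison at 0.05. Values of single probe sets come from the same model over all probe sets above the filter. The script was tested on simulated data. Starts were searched in RefSeq promoter sequences with Python 3.11.15.

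Named genes were, for each comparison, up to 6 largest rises and falls among called members with separate groups, up to 4 on each side after centring on the members, a set of well-known members and the paralogs whatever their result, and up to 4 called genes of each list. Members next to the threshold were added. The members and lists were chosen with earlier results of these data known. Alternatives were other scalings, pseudocounts, filters, probe set choices, a replicate block, and leaving out each array.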

Additional observations from a re-analysis of the deposited data

How the results depend on the processing

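Counts of called members and their medians were recomputed under each alternative, given here as higher and lower counts. Over all genes these were 2592 and 1931, 3299 and 3282, and 3353 and 3833 for the 3 comparisons in the main fit. They were 2184 and 2031, 3776 and 2754, and 3892 and 3240 with 75th-percentile centring. Quantile normalization gave 2552 and 2143, 3470 and 3093, and 3603 and 3592. Of the other alternatives, only leaving out DMSO replicate 3 has its all-gene shares given, in the sections above. With rapamycin in sensitive cells, the rises numbered 1 with arrays centred on their 75th percentile and 1 with eBayes without a trend, 6 with probe sets averaged per gene and 5 with the most variable one; falls numbered 3 under quantile normalization and 0 among the 21 genes with a probe set free of a shared-probe suffix. The median was 0.0011 under quantile normalization, and -0.0078 when the 8 arrays without DMSO replicate 3 were normalized so, with 3 falls; that last alternative was chosen after seeing the data. Leaving out 1 array gave 2 to 4 rises and 0 to 2 falls. In resistant against DMSO cells, the rises numbered 12 of the 21 suffix-free genes, whose median was 0.71; quantile normalization gave 3 falls and a median of 0.13, or 4 falls and 0.13 on 8 arrays. Leaving out 1 array gave 17 to 29 rises and 0 falls. In resistant against sensitive rapamycin cells, 75th-percentile centring gave 0 falls and a median of 0.28, quantile normalization 23 rises and 3 falls on 9 and on 8 arrays, eBayes without a trend 9 rises, and the 2 groups alone 2 falls; the median was 0.48 over suffix-free genes and 0.27 with the most variable probe set. Leaving out 1 array gave 8 to 22 rises and 0 to 2 falls.

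After centring on the members, rapamycin against DMSO gave 0 rises with a pseudocount of 64, 4 rises and 1 fall with the mean of probe sets, 2 rises and 0 falls over suffix-free genes, and 0 to 2 rises and 1 to 3 falls without 1 array. The mean of probe sets gave 8 rises and 22 falls in resistant against DMSO cells and 8 and 25 against sensitive rapamycin cells; suffix-free genes gave 1 rise in either; leaving out 1 array gave 4 to 7 falls against DMSO and 3 to 8 against rapamycin.

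Replicate numbers were shared between groups, and the labels do not say whether they pair arrays. Same-numbered arrays did not deviate together (correlations of -0.08 to 0.02), but this cannot show that they were not handled together. With a replicate block 3 rises and 1 fall, 24 and 0, and 13 and 1 were called in the order of comparisons above.

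Of the named genes, these turned sign with at least 1 value called. In sensitive cells with rapamycin, Rpl8 was -0.15 under quantile normalization, and with the dimmest probe set Ebna1bp2 was 0.065 and Zfp622 -0.037. In resistant against DMSO cells, quantile normalization gave -0.19 for Rps2, -0.13 for Rps14, -0.13 for Rpl7a and -0.19 for Eef1a1, and on 8 arrays -0.20 for Rps2, -0.25 for Rpl41, -0.11 for Rplp0, -0.11 for Rpl7a and -0.19 for Eef1a1. The dimmest probe set gave -0.34 for Eif4ebp1, -0.35 for Eif4ebp2, -0.013 for Grwd1, -0.18 for Hnrnpd, -0.24 for Ipo7, -0.46 for Rps24, -0.12 for Rpsa and -0.19 for Zfp622; the values of Eif4ebp2 and Rpsa were the same with the most variable probe set, and that of Hnrnpd without shared-probe suffix. In resistant against sensitive rapamycin cells, Rpl41 was 0.85 with its probe sets averaged and 1.78 with its suffix-free, most variable or dimmest one, Eif4e was -0.27 with the most variable or dimmest one, Ipo7 -0.58 with the dimmest and Zfp622 0.46 without suffix. Calls of named genes lost without a turn of sign numbered 26 with the dimmest probe set and 13 with the most variable one. They numbered 10 with probe sets averaged and 9 without shared-probe suffix, over the comparisons together. Causes were not tested, beyond fewer genes in the suffix-free set.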
